A study of Mus musculus with 6 samples.

Results

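The 50 genes described here encode the machinery that copies DNA in S phase and divides the chromosomes in mitosis. They were chosen by name, with 24 S-phase genes and 26 mitotic genes, and every probe set whose platform annotation named 1 of them alone was taken. That gave 109 of the 45101 probe sets on the array, for 49 of the 50 genes. For Ccnb1, cyclin B1, no probe set named the gene, and its RNA was not analysed here. RNA came from 393P, a mouse lung cancer cell line that both groups share. In 3 cultures the cells stably and constitutively expressed Zeb1, a zinc-finger repressor of epithelial genes, and in 3 cultures they carried the empty pcDNA control vector. Cells had been transfected with Lipofectamine reagents and grown in RPMI with 10% serum, and the labels do not say whether the 3 cultures of a group came from 1 clone, a pool or several transfections, nor which promoter drives Zeb1.

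A cell prepares each origin of replication by loading the Mcm helicase, and it fires the origin only once S-phase kinases become active. E2F factors switch on most of the genes for this step. Later in the cycle B-Myb and Foxm1 switch on the mitotic genes, many of them through a CHR element (cell cycle genes homology region) beside CCAAT boxes in their promoters. In cultured tumour cells the summed RNA of both classes follows the share of cells that are cycling. In bulk RNA, fewer cells in S phase or mitosis and less RNA per cell cannot be told apart.

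The arrays measured biotin-labelled cRNA, and values are log2 signals, in which a difference of 1 is a doubling. The 2% trimmed mean of the linear signals was 500 on each array. Correlations between arrays used the probe sets above the floor for low signals on all 6 arrays. Across these, arrays of 1 group correlated at r = 0.98 and arrays of different groups at 0.930 to 0.935. Zeb1 itself was at 9.71, 9.59 and 9.78 in Zeb1 vector cells, against 4.45, 4.45 and 4.50 in control vector cells on its brightest probe set, where 4.45 is the floor set on low signals. Of 8 lung epithelial markers 3 fell, 0 rose, 3 were not called and 2 were too dim to test. The adhesion genes Epcam and Cdh1 fell, to means of 6.66 and 10.17 in Zeb1 vector cells, against 13.72 and 14.18 in control vector cells. The keratin Krt8 fell slightly, to 14.32 in Zeb1 vector cells, against 14.47 in control vector cells (limma, adjusted p = 0.0112), and Krt18 was at 14.72 and 14.69. The surfactant gene Sftpb averaged 8.44 in Zeb1 vector cells and 8.08 in control vector cells, with all Zeb1 vector arrays higher but no call (adjusted p = 0.0534), and Sftpc was at 6.30 and 6.31. Nkx2-1, the lung lineage factor, and Napsa were at or near the floor in both groups (4.63 and 4.79 for Nkx2-1, 4.45 and 4.78 for Napsa). The summed linear signal of 6 leukocyte markers was 474.6 to 643.5 in Zeb1 vector cells and 560.9 to 634.8 in control vector cells, and that of 6 fibroblast markers was 278.9 to 367.4 and 278.2 to 454.8, with ranges that overlapped for both lists.

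In Zeb1 vector cells many replication and mitosis genes were modestly lower and a few were higher. Of the 49 measured genes 23 fell, 5 rose and 21 did not pass the test (limma, Benjamini-Hochberg adjusted p below 0.05 over 11893 tested genes). Over all tested genes 50.5% were called, 24.1% as falls and 26.4% as rises, and among the 49 members the shares were 46.9% and 10.2%. The median log2 change of the members was -0.23, beside 0.01 for all tested genes. The sizes were small: the median absolute log2 change was 0.29 for the members and 0.36 for all tested genes. Of the 49 members 1 was called with a change of at least 2-fold, where 15.8% of all tested genes were. Most members were bright, with a median control vector level at percentile 85.0 of tested genes and the lowest, Tyms, at percentile 18.3. Their median SE was 0.0793, beside 0.129 for all tested genes, so that smaller changes could pass the test.

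Both phases contributed. Among the 24 S-phase genes 12 fell and 3 rose (50% and 12.5%), with a median log2 change of -0.23. Of the 25 measured mitotic genes 11 fell and 2 rose (44.0% and 8%), with a median of -0.29. The mean log2 level of the S-phase genes was 11.34 ± 0.00801 in Zeb1 vector cells and 11.54 ± 0.0385 in control vector cells, and that of the mitotic genes was 11.18 ± 0.0481 and 11.38 ± 0.0336 (SD, n = 3 each). The S-phase mean minus the mitotic mean was 0.20, 0.16 and 0.12 on the Zeb1 vector arrays, against 0.12, 0.19 and 0.17 on the control vector arrays. The 2 sets of values overlapped, and the difference of their means was 0.00124. Across the members the groups of arrays did not overlap for 30 genes, beside 58.2% of all tested genes: 23 with all Zeb1 vector arrays lower and 7 with all of them higher, where all tested genes gave 28.0% and 30.2%.

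**Figure D1:**
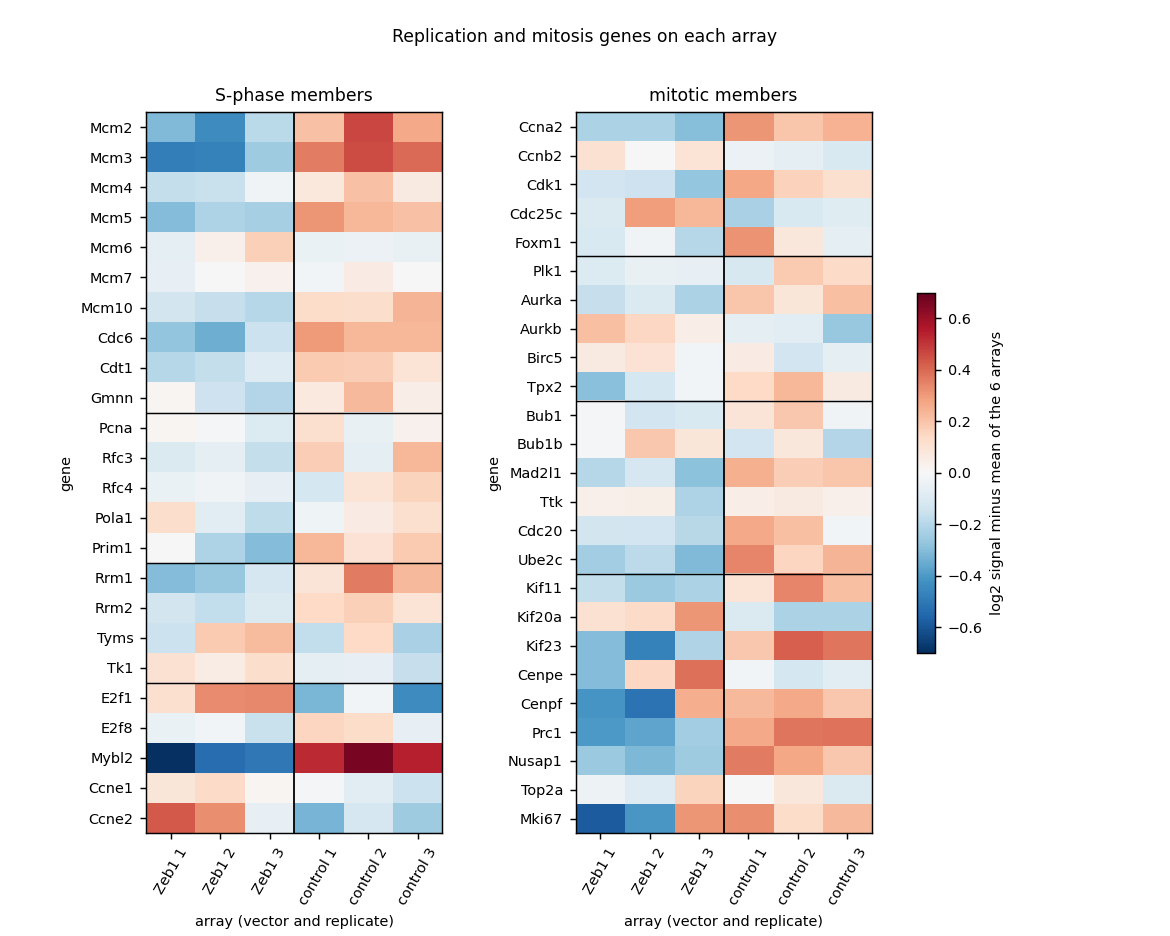
Log2 signal of each member on each array, minus its mean over the 6 arrays; columns are the 3 Zeb1 vector and then the 3 control vector arrays, rows are genes, and lines part the role groups. Most rows are bluer on the left, Mybl2 most of all, while E2f1, Ccne2, Tk1, Aurkb and Kif20a are redder on the left.

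**Figure D2:**
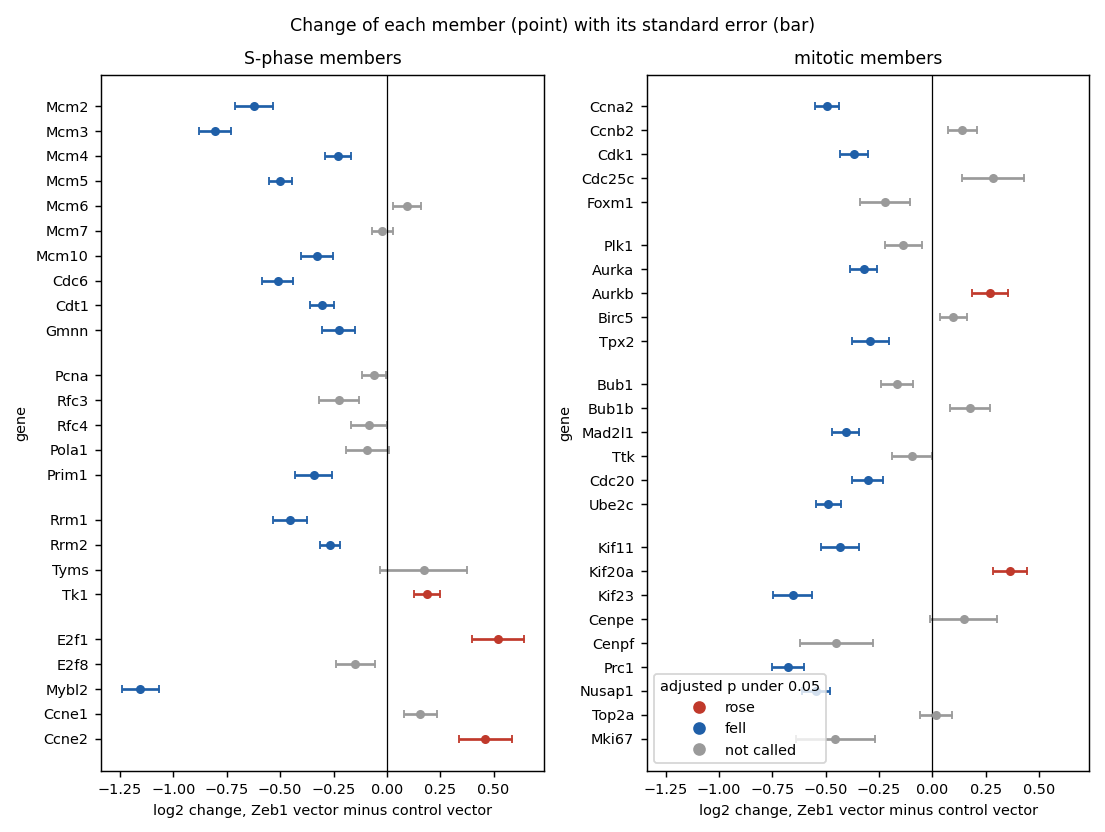
Log2 change of each member, Zeb1 vector minus control vector, as points with the moderated standard error as bars, coloured by the call at an adjusted p under 0.05. 23 genes fell, 5 rose and 21 were not called; Mybl2 at -1.15 is the lowest and E2f1 at 0.52 the highest.

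Of the origin licensing and helicase genes 8 of 10 fell and 0 rose, the largest share of falls among the 8 role groups. The calls of Mcm4, Mcm10 and Gmnn, however, were lost in some alternative settings. The counts of this and the following role groups are to be read beside all tested genes, of which 24.1% fell and 26.4% rose. Mcm2 to Mcm7 form the ring-shaped helicase that unwinds DNA, Cdc6 and Cdt1 load it onto origins, geminin (Gmnn) restrains Cdt1, and Mcm10 helps start the fork. Mcm3 had the largest fall of the group, at 11.68, 11.69 and 11.91 in Zeb1 vector cells, against 12.52, 12.62 and 12.56 in control vector cells. It fell by 0.81 on the log2 scale (SE 0.0742, adjusted p = 1.04e-05), or 1.75-fold, and all 5 of its probe sets fell, by 0.57 to 1.00. Mcm2 was at 11.23, 11.10 and 11.35 in Zeb1 vector cells, against 11.75, 12.01 and 11.81 in control vector cells, and fell by 0.62 (SE 0.0897, adjusted p = 0.000228). In both genes every Zeb1 vector array lay below every control vector array.

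Mcm5 fell by 0.50 (adjusted p = 3.45e-05) and Mcm4 by 0.23 (adjusted p = 0.0111). On its other probe set, however, Mcm4 had a log2 change of -0.05 (adjusted p = 0.508), and its call was lost when probe sets whose probes can match other transcripts were left out (adjusted p = 0.505). The remaining subunits of the ring were not called. Mcm6 was at 12.45, 12.55 and 12.67 in Zeb1 vector cells, against 12.46, 12.47 and 12.45 in control vector cells, with 0.09 as its log2 change (SE 0.0652, adjusted p = 0.267), and its groups overlapped. Mcm7, the member of the group with the smallest change, was at 13.47, 13.52 and 13.55 in Zeb1 vector cells, against 13.50, 13.58 and 13.52 in control vector cells, -0.02 as a change (SE 0.0484, adjusted p = 0.746). Of its 3 other probe sets 2 fell, by 0.21 and 0.27, and Mcm7 fell by 0.17 with the mean of all its tested probe sets (adjusted p = 0.0348).

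Both loading factors fell. Cdc6 was at 10.83, 10.77 and 10.96 in Zeb1 vector cells, against 11.41, 11.34 and 11.34 in control vector cells, and fell by 0.51 (SE 0.0734, adjusted p = 0.000227), and Cdt1 fell by 0.30 on its brightest probe set and 0.53 on another. Gmnn and Mcm10 fell by 0.23 and 0.33 (adjusted p = 0.0364 and 0.00404). The call of Gmnn was lost in 7 of 15 alternative settings, 4 of them fits without 1 array (adjusted p = 0.105 without Zeb1 vector replicate 2, 0.110 without replicate 3, 0.0563 without control vector replicate 1 and 0.114 without replicate 2). For Mcm10 a dimmer probe set had a change of 0.22 that was not called, and with the mean of probe sets the gene had a change of -0.05 (adjusted p = 0.677).

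The promoters of Mcm3, which fell, and Mcm6, which was not called, are shown to compare 2 subunits of 1 complex. Each is the RefSeq window of 250 bases before to 50 bases after a start site (build GRCm38.p6), read 5′ to 3′ on the strand of the gene. Capitals mark matches, on either strand, to TTTCGCGC or TTTGGCGC for E2F, TTTGAA or TTCGAA for CHR, CCAAT, and CAGGTG, the E-box that Zeb1 can bind.
Mcm3 (chr1:20820263-20820562, minus strand): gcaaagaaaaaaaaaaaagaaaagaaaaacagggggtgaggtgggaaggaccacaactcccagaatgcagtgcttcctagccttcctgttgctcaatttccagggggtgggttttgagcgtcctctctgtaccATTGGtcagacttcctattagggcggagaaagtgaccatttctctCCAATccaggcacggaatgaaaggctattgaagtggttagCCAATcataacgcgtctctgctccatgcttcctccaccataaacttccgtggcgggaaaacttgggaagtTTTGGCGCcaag
Mcm6 (chr1:128359656-128359955, minus strand): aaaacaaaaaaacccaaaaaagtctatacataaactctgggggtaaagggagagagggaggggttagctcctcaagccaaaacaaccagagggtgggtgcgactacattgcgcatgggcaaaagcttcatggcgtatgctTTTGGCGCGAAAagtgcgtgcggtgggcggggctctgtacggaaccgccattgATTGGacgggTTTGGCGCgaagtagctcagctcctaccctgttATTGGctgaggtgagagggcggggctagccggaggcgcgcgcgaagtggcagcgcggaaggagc

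Counted from 1 at the 5′ end, the Mcm3 window holds an E2F match at base 289 and CCAAT boxes at bases 134, 179 and 219. The Mcm6 window holds E2F matches at bases 141, 145 and 204, of which the first 2 overlap, and CCAAT boxes at bases 194 and 237. Neither window holds the CHR letters or the E-box. A match describes the letters and does not show that a factor binds there.

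Of the fork and primase genes 1 of 5 fell and 0 rose, a smaller share of falls than the 24.1% of all tested genes. All 5 had negative changes, but 4 of them were not called. Prim1, the catalytic subunit of the primase that lays RNA primers, was at 11.66, 11.45 and 11.36 in Zeb1 vector cells, against 11.90, 11.76 and 11.84 in control vector cells. It fell by 0.34 (SE 0.0849, adjusted p = 0.0067), and its second probe set fell by 0.32. Pcna, the sliding clamp that holds polymerases on DNA, had the smallest change, at 13.89, 13.88 and 13.79 in Zeb1 vector cells, against 13.99, 13.83 and 13.91 in control vector cells. Its log2 change was -0.06 (SE 0.0558, adjusted p = 0.414), and the groups overlapped. The clamp loader subunits Rfc3 and Rfc4 had changes of -0.22 and -0.08 (adjusted p = 0.0693 and 0.452), and Pola1, the catalytic subunit of polymerase alpha, -0.09 (adjusted p = 0.486). The second probe set of Rfc3 fell by 0.30.

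Genes of nucleotide supply went both ways, with 2 of 4 falling and 1 rising. Ribonucleotide reductase, which makes deoxynucleotides, fell in both subunits. Its large subunit gene Rrm1 was at 12.06, 12.10 and 12.25 in Zeb1 vector cells, against 12.45, 12.72 and 12.59 in control vector cells, and fell by 0.45 (SE 0.0808, adjusted p = 0.000918). The small subunit gene Rrm2 fell by 0.27 (adjusted p = 0.000796). Its call was lost with the mean of its 3 probe sets (adjusted p = 0.0576), the dimmest of which ranged from 9.75 to 11.35 on the control vector arrays.

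Tk1, the thymidine kinase of the salvage route, was at 12.02, 11.97 and 12.04 in Zeb1 vector cells, against 11.85, 11.86 and 11.76 in control vector cells. It rose by 0.19 (SE 0.0607, adjusted p = 0.0253), and this call did not hold once Zeb1 vector replicate 1, Zeb1 vector replicate 3 or control vector replicate 3 was left out (adjusted p = 0.0713, 0.0594 and 0.104). Tyms, thymidylate synthase, was read by 1 tested probe set of low signal, at 6.97, 7.30 and 7.34 in Zeb1 vector cells, against 6.94, 7.26 and 6.89 in control vector cells. Its log2 change was 0.17 (SE 0.206, adjusted p = 0.528). The other 3 Tyms probe sets did not pass the filter on low signals, and a further probe set that names Tyms with another gene was not used.

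The S-phase transcription factors and E-type cyclins held both extremes of the 49 genes. Mybl2, which encodes B-Myb, fell most, at 9.49, 9.66 and 9.69 in Zeb1 vector cells, against 10.71, 10.86 and 10.74 in control vector cells. It fell by 1.15 on the log2 scale (SE 0.0886, adjusted p = 2.75e-06), or 2.23-fold, with wide separation of the groups. A dimmer Mybl2 probe set had a change of -0.39 that was not called (adjusted p = 0.068), and the gene fell by 0.77 with the mean of both. E2f1, an activator of S-phase genes, rose most, at 9.97, 10.19 and 10.20 in Zeb1 vector cells, against 9.54, 9.84 and 9.42 in control vector cells. Its rise was 0.52 (SE 0.122, adjusted p = 0.00511), or 1.43-fold, and its other tested probe set had a change of 0.29 that was not called (adjusted p = 0.0731).

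The E-type cyclins activate Cdk2 at entry into S phase. Ccne2 was at 10.86, 10.76 and 10.38 in Zeb1 vector cells, against 10.11, 10.32 and 10.18 in control vector cells, and rose by 0.46 (SE 0.124, adjusted p = 0.0103). Its lowest Zeb1 vector array exceeded its highest control vector array by little, and the call was lost with no filter on low signals (adjusted p = 0.0789). Ccne1 had a change of 0.16 (adjusted p = 0.123) on its brightest probe set, and rose by 0.27 on its other one. E2f8, a repressor of the E2F family, had the smallest change of the group, at 9.999, 10.02 and 9.89 in Zeb1 vector cells, against 10.19, 10.17 and 9.99 in control vector cells. That change was -0.15 (SE 0.0911, adjusted p = 0.212).

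Among the mitotic cyclins and their partners 2 of 5 measured genes fell and 0 rose. Ccna2, cyclin A2, which acts in S phase and at mitotic entry, was at 12.37, 12.37 and 12.30 in Zeb1 vector cells, against 12.90, 12.79 and 12.83 in control vector cells. It fell by 0.49 (SE 0.0560, adjusted p = 4.46e-05) and by 0.29 on its other probe set. Cdk1, the kinase that drives mitosis, was at 12.38, 12.36 and 12.24 in Zeb1 vector cells, against 12.78, 12.67 and 12.62 in control vector cells, and fell by 0.37 (SE 0.0647, adjusted p = 0.000872). In both genes the groups of arrays did not overlap. Ccnb2, cyclin B2, had the smallest change, at 11.22, 11.12 and 11.21 in Zeb1 vector cells, against 11.07, 11.05 and 11.005 in control vector cells. Its log2 change of 0.14 did not pass the test (SE 0.0671, adjusted p = 0.112), although all its Zeb1 vector arrays lay above the control vector arrays.

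Cdc25c, a phosphatase that activates Cdk1, had a change of 0.28 on its brightest probe set (adjusted p = 0.136) and rose by 0.78 on its other one (adjusted p = 0.00896 over probe sets). Foxm1, the transcription factor of the mitotic genes, had a change of -0.22 (adjusted p = 0.148), and 1 of its 3 tested probe sets fell, by 0.42.

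The mitotic kinases and chromosomal passenger genes divided, with 2 of 5 falling and 1 rising. Aurka, the Aurora kinase of spindle poles, was at 11.66, 11.72 and 11.61 in Zeb1 vector cells, against 12.02, 11.91 and 12.03 in control vector cells, and fell by 0.32 (SE 0.0648, adjusted p = 0.002). Aurkb, the Aurora kinase of the chromosomal passenger complex, was at 10.96, 10.90 and 10.80 in Zeb1 vector cells, against 10.69, 10.67 and 10.49 in control vector cells, and rose by 0.27 (SE 0.0842, adjusted p = 0.0223). Its second probe set rose by 0.31, and the probes of both can match other transcripts. The call of Aurkb was lost without Zeb1 vector replicate 1, Zeb1 vector replicate 2 or control vector replicate 3 (adjusted p = 0.0831, 0.0653 and 0.0888).

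Birc5, survivin, which sits in the same complex, had the smallest change of the group, at 12.95, 12.99 and 12.87 in Zeb1 vector cells, against 12.95, 12.75 and 12.82 in control vector cells. The change was 0.10 (SE 0.0641, adjusted p = 0.236). Plk1, a kinase of many mitotic steps, had a change of -0.14 (adjusted p = 0.228). Tpx2, the spindle factor that activates Aurora A, fell by 0.29 (SE 0.0854, adjusted p = 0.0163) on its brightest probe set. Its other 3 tested probe sets had changes of -0.12, 0.12 and 0.38 with no call, and with the mean of all 4 the change was 0.02 (adjusted p = 0.889). The Tpx2 call was also lost without Zeb1 vector replicate 1 or control vector replicate 2 (adjusted p = 0.0653 and 0.0557).

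In the spindle checkpoint and APC/C group 3 of 6 fell and 0 rose. The checkpoint holds cells in metaphase until chromosomes are attached, and the APC/C is the ubiquitin ligase that then starts anaphase. The falls included both APC/C partners. Ube2c, its ubiquitin-conjugating enzyme, was at 13.34, 13.40 and 13.27 in Zeb1 vector cells, against 13.92, 13.73 and 13.82 in control vector cells, and fell by 0.49 (SE 0.0601, adjusted p = 8e-05). Cdc20, its activator, fell by 0.30 (SE 0.0724, adjusted p = 0.00547), and all 3 of its probe sets fell.

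Of the checkpoint genes, Mad2l1 was at 11.99, 12.07 and 11.90 in Zeb1 vector cells, against 12.44, 12.36 and 12.38 in control vector cells, and fell by 0.41 (SE 0.0631, adjusted p = 0.000385). The checkpoint kinases were not called. Bub1 had a change of -0.17 (adjusted p = 0.0897), and Bub1b had 0.17 (adjusted p = 0.155). Ttk, which recruits the checkpoint proteins, had the smallest change, at 10.09, 10.10 and 9.84 in Zeb1 vector cells, against 10.11, 10.12 and 10.10 in control vector cells, with -0.10 as its log2 change (SE 0.0935, adjusted p = 0.432).

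Of the kinesin, kinetochore, midzone and chromosome genes 4 of 9 fell and 1 rose. With each gene read by its brightest probe set, Prc1, which bundles microtubules at the spindle midzone, had the largest mitotic fall. It was at 10.73, 10.76 and 10.88 in Zeb1 vector cells, against 11.39, 11.50 and 11.51 in control vector cells. It fell by 0.68 (SE 0.0736, adjusted p = 3.31e-05), or 1.60-fold, on this probe set, whose probes can match other transcripts. On its other probe set Prc1 fell by 0.54. Kif23, a kinesin of the centralspindlin complex, was at 10.79, 10.62 and 10.88 in Zeb1 vector cells, against 11.28, 11.51 and 11.47 in control vector cells, and fell by 0.65 (SE 0.0914, adjusted p = 0.00019), and by 0.87 on a second probe set. Kif20a, a kinesin of the same midzone, was at 11.14, 11.16 and 11.34 in Zeb1 vector cells, against 10.93, 10.81 and 10.81 in control vector cells, and rose by 0.37 (SE 0.0795, adjusted p = 0.00322). The groups of arrays were apart in each of the 3 genes, with Kif20a in the opposite direction.

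Nusap1, a protein that bundles microtubules near chromosomes, fell by 0.55 (SE 0.0671, adjusted p = 7.81e-05), and Kif11, the kinesin that pushes spindle poles apart, by 0.43 (SE 0.0885, adjusted p = 0.00224). Top2a, the topoisomerase that untangles sister chromatids, had the smallest change of all 49 genes, each read by its brightest probe set. It was at 12.75, 12.69 and 12.94 in Zeb1 vector cells, against 12.78, 12.86 and 12.68 in control vector cells, with 0.02 as its log2 change (SE 0.0755, adjusted p = 0.87). A dimmer Top2a probe set had a change of 0.50 that was not called (adjusted p = 0.0907). On it all Zeb1 vector arrays lay above the control vector arrays.

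Mki67, Cenpf and Cenpe varied most between arrays of 1 group. Mki67, the proliferation antigen Ki-67, was at 11.004, 11.18 and 11.89 in Zeb1 vector cells, against 11.92, 11.72 and 11.81 in control vector cells. Its change was -0.45 (SE 0.187, adjusted p = 0.068), and Zeb1 vector replicate 3 lay with the control vector arrays. Cenpf, a kinetochore protein, was at 9.81, 9.71 and 10.48 in Zeb1 vector cells, against 10.45, 10.49 and 10.41 in control vector cells, a change of -0.45 (SE 0.172, adjusted p = 0.0518). Without Zeb1 vector replicate 3 both genes fell, Mki67 by 0.72 (adjusted p = 0.00021) and Cenpf by 0.69 (adjusted p = 0.000248). That fit leaves out the values nearest the control vector arrays, so lower p-values follow from it. Neither gene was called when any other array was left out. A dimmer Cenpf probe set had a change of 0.02 that was not called (adjusted p = 0.94).

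Cenpe, a kinetochore kinesin, was at 9.12, 9.56 and 9.80 in Zeb1 vector cells, against 9.40, 9.30 and 9.34 in control vector cells, again with the highest value on Zeb1 vector replicate 3. Its change was 0.15 (SE 0.157, adjusted p = 0.477), and without Zeb1 vector replicate 1, its lowest value, it rose by 0.34 (adjusted p = 0.0444). Leaving out any other array gave no call for Cenpe. The SD over Zeb1 vector arrays was 0.471, 0.419 and 0.350 for these 3 genes, where the median member had 0.0831. Over all 49 genes that array was the highest of its group for 22 and the lowest for 20. Its part in other results was measured by leaving it out, which gave 24 falls and 4 rises.

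The promoters of Prc1 and Top2a are shown as mitotic genes with and without a fall, from the same RefSeq windows and with capitals for the same 4 motifs.
Prc1 (chr7:80294201-80294500, plus strand): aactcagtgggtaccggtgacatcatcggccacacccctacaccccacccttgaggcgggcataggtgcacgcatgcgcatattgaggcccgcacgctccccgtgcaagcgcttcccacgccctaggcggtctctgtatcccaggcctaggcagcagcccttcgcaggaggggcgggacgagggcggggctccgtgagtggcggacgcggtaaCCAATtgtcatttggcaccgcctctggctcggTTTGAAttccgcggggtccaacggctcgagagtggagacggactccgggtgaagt
Top2a (chr11:99024140-99024439, minus strand): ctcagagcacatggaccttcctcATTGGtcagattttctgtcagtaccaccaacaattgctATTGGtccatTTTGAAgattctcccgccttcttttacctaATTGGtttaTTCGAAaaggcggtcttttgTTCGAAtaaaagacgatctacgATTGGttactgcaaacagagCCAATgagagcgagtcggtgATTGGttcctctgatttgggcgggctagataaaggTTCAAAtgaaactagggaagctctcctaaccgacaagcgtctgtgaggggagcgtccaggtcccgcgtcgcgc

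The Prc1 window holds a CHR match at base 246 and a CCAAT box at base 214, the usual pair of mitotic promoters. In the Top2a window there are CHR matches at bases 72, 111, 131 and 228, and 6 CCAAT boxes, at bases 24, 62, 102, 153, 173 and 193. Both genes carry the mitotic letters although Prc1 fell and Top2a was not called.

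Over all members, 43 windows of 41 genes were in the RefSeq table, with more than 1 window each for Mcm7 and Prc1. They include the mitotic window of Ccnb1, which has no call and is left out of the shares by call. They are set beside the 12371 windows of tested genes and all 32851 windows of that length. The CHR letters were in 76.2% of the 21 mitotic windows and 18.2% of the 22 S-phase windows, beside 13.7% for tested genes and 19.2% of all windows. E2F letters were in 4.76% of mitotic and 31.8% of S-phase windows, beside 1.52% for tested genes and 0.813% of all windows. CCAAT boxes were in 85.7% of mitotic and 63.6% of S-phase windows, beside 37.2% and 37.4%. The E-box was in 4.76% of mitotic and 9.09% of S-phase windows, beside 18.5% and 20.2%. Matches of different motifs overlapped in 1 member window.

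By call, CHR matches were in 45% of the 20 windows of members that fell and 55% of the 20 windows of members that were not called, E2F matches were in 20% of each, CCAAT boxes in 75% and 80%, and the E-box in 10% and 5%. These shares pool the phases, although CHR matches were in 76.2% of mitotic and 18.2% of S-phase windows. The windows of E2f1 and Tk1, the members that rose and had a window here, held none of the 4 motifs. The E-box was in 3 member windows, those of Prim1, Tyms and Nusap1. These shares are descriptions, with no test, and the 4 motifs and the window set what can be found.

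Probe sets of the same gene mostly moved the same way. Of the 93 member probe sets that passed the filter 43 fell (46.2%) and 8 rose (8.60%), where 46.1% of the 20594 tested probe sets were called, 21.6% as falls and 24.5% as rises. The other 16 member probe sets had low signals. Among the 32 members with several tested probe sets, 26 had changes of 1 sign throughout, and 0 had calls in both directions. Signs were mixed in Mcm6, Mcm10, Tpx2, Ttk, Cenpe and Cenpf. Probe sets of 1 gene share their RNA, so a like change in both is no replication of the cultures.

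**Figure D3:**
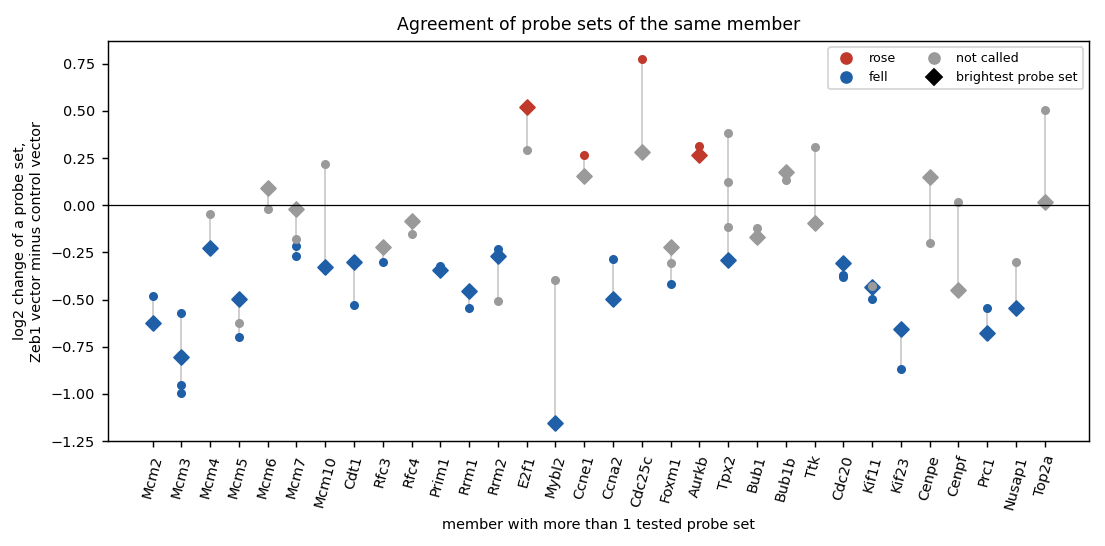
Log2 change, Zeb1 vector minus control vector, of every tested probe set of the 32 members with more than 1, coloured by the call over all 20594 tested probe sets; diamonds are the brightest probe set of each gene. All 5 Mcm3 probe sets lie below -0.5, and the 4 Tpx2 probe sets span -0.29 to 0.38.

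**Figure D4:**
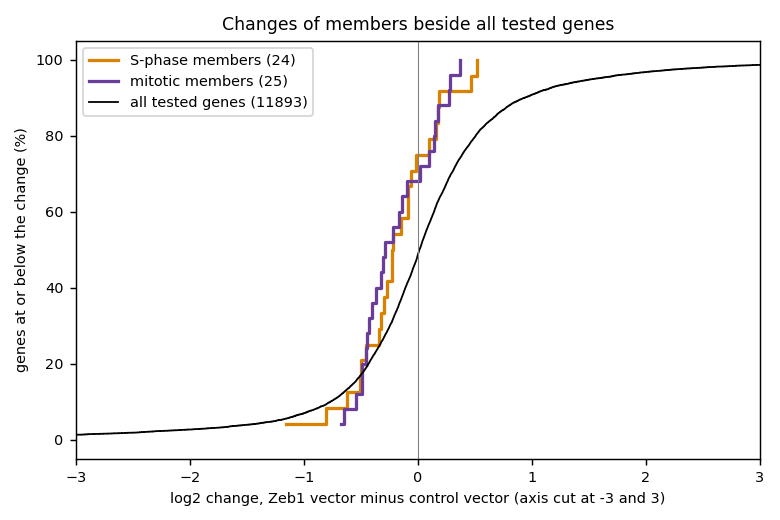
Cumulative share of genes, in percent, at or below each log2 change for the 24 S-phase members, the 25 measured mitotic members and all 11893 tested genes, with the ends of the x axis cut. The 2 member curves run close together, left of the curve of all genes near 0; their medians are -0.23 and -0.29, beside 0.01.

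Other genes of the same pathways, read from 10 lists that hold no member, were mixed. In the S-phase lists 17 of 59 tested genes fell and 12 rose (28.8% and 20.3%), with a median log2 change of -0.10. In the mitotic lists 33 of 85 fell and 14 rose (38.8% and 16.5%), with a median of -0.18. Against the 24.1% and 26.4% of all tested genes, these shares lay nearer to the background than those of the 49 members. The counts of single lists that follow are to be read beside the same 24.1% and 26.4%.

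Among genes of origin recognition and firing, 6 of 14 fell and 2 rose. Orc1, a subunit of the complex that marks origins, was at 8.18, 8.49 and 8.41 in Zeb1 vector cells, against 9.25, 9.54 and 9.31 in control vector cells, and fell by 1.01 (SE 0.129, adjusted p = 0.000107). Orc2 fell by 0.51, whereas Orc3 rose by 0.59. Cdc45, which activates the Mcm ring, was at 10.50, 10.56 and 10.47 in Zeb1 vector cells, against 9.42, 9.76 and 9.37 in control vector cells, and rose by 0.99 (SE 0.110, adjusted p = 3.98e-05). Its direction was opposite to that of Mcm2 to Mcm5.

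Of the polymerase, clamp loader, ligase and RPA genes 6 of 20 fell and 5 rose. Polymerase delta had subunits in both directions, with Pold3 falling by 0.72 (adjusted p = 0.00239) and Pold2 rising by 0.69 (adjusted p = 2.39e-05). Rfc1, the large clamp loader subunit, fell by 0.71. Of the single-strand binding complex, Rpa1 rose by 0.56, whereas Rpa2 and Rpa3 fell by 0.48 and 0.30. Rpa2 and Rpa3 were added after their values were seen. In nucleotide synthesis 1 of 9 fell and 2 rose: Mthfd1, a folate enzyme, fell by 0.65, and Dtymk, thymidylate kinase, and Shmt1, a serine hydroxymethyltransferase, rose by 0.61 and 0.34.

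In the list of E2F, Rb and DREAM regulators, which set the timing of both classes, 4 of 16 fell and 3 rose. Rbl2, which encodes p130, the pocket protein of the repressive DREAM complex, was at 7.51, 7.67 and 7.58 in Zeb1 vector cells, against 6.41, 6.05 and 5.92 in control vector cells. It rose by 1.46 (SE 0.219, adjusted p = 0.000303), with 2 control vector arrays below their array medians. The E2F partner gene Tfdp2 rose by 0.72. E2f2, an activator, was low and scattered, at 6.70, 4.71 and 6.16 in Zeb1 vector cells, against 7.62, 6.98 and 7.93 in control vector cells, and fell by 1.65 (SE 0.470, adjusted p = 0.014). E2f7, the relative of E2f8, fell by 0.93 (SE 0.118, adjusted p = 9.62e-05).

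Among the mitotic lists, kinases, cofactors and passenger genes had the largest share of falls, 9 of 14, with 0 rises. Bora, which helps Aurora A activate Plk1, was at 7.98, 7.97 and 8.05 in Zeb1 vector cells, against 9.11, 9.24 and 9.10 in control vector cells, and fell by 1.15 (SE 0.112, adjusted p = 1.56e-05). The mitotic kinase gene Pbk fell by 0.98 (SE 0.0742, adjusted p = 2.57e-06). The passenger subunits Cdca8 and Incenp fell by 0.40 and 0.26, where Aurkb of the same complex rose. Each of these genes was read by a probe set whose probes can match other transcripts. The call of Aurkb was lost in 5 of 14 alternative settings. Cdca8 and Incenp were singled out after their values were seen.

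Of cytokinesis genes 3 of 8 fell and 2 rose. Racgap1, the partner of Kif23 in centralspindlin, was at 10.72, 10.73 and 10.76 in Zeb1 vector cells, against 11.75, 11.61 and 11.64 in control vector cells, and fell by 0.93 (SE 0.0675, adjusted p = 1.8e-06). The abscission gene Cep55 fell by 0.41, and Cntrob and Chmp4b rose by 0.48 and 0.23. For condensin, cohesin and separation 6 of 15 fell and 2 rose. Espl1, separase, fell by 0.86, the condensin subunit gene Ncapd2 by 0.54, and securin (Pttg1) and the cohesin gene Stag1 rose by 0.37 and 0.27.

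The remaining lists also had calls in both directions, as all tested genes did (24.1% fell and 26.4% rose). For APC/C subunits and regulators 5 of 13 fell and 4 rose. Fbxo5, the APC/C inhibitor Emi1, and Fzr1, the activator Cdh1, fell by 0.73 and 0.56, and the subunit genes Cdc23 and Cdc27 rose by 1.07 and 0.40. Kinesins and spindle genes had 5 falls and 2 rises of 16, led by Ckap2 (-0.95) and Tacc3 (-0.56) among the falls and by Kif2a (1.16) and Spag5 (0.84) among the rises. In the centromere and kinetochore list 5 of 19 fell and 4 rose, with Cenpm and Cenpa falling by 0.60 and 0.35, and Cenpk and Mis12 rising by 0.78 and 0.52.

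**Figure D5:**
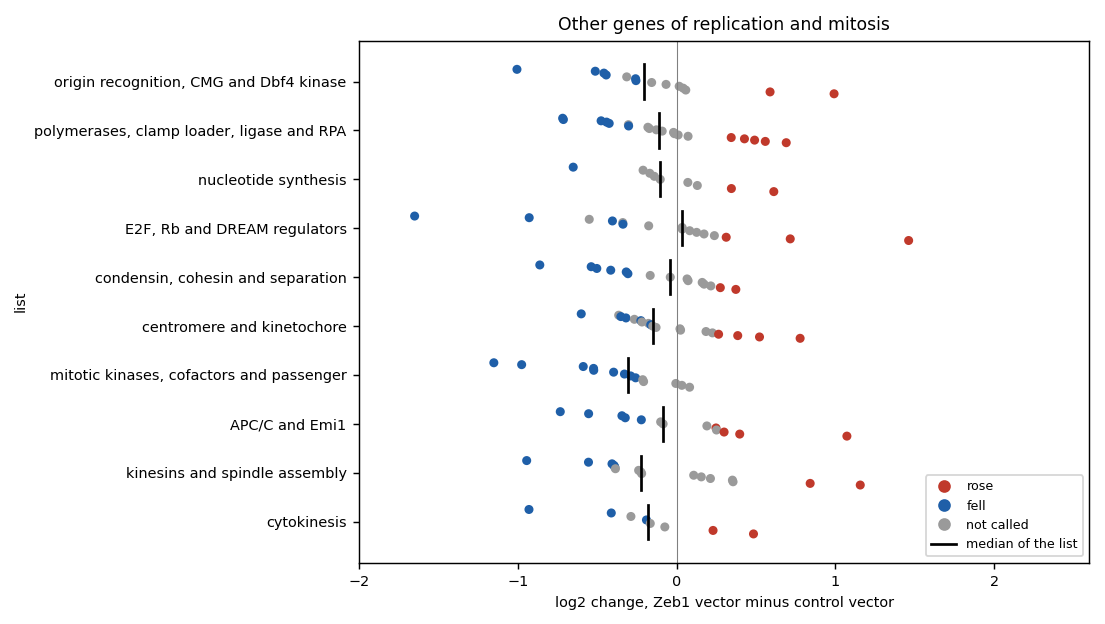
Log2 change, Zeb1 vector minus control vector, of each tested gene in 10 lists of other replication and mitosis genes, coloured by the call at an adjusted p under 0.05, with the list median as a black bar. The medians run from -0.31 for mitotic kinases to 0.03 for E2F, Rb and DREAM regulators.

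Of the 28 calls among members, 19 held under each alternative setting in which the gene could be tested, 17 falls and 2 rises. The 2 rises were E2f1 and Kif20a. Of the 21 members that were not called, 9 stayed so under every setting and 12 were called in at least 1. Among these 12, Mcm7, Rfc3, Foxm1, Plk1, Cenpf and Mki67 were called as falls, and Ccne1, Ccnb2, Cdc25c, Birc5, Bub1b and Cenpe as rises. The 9 calls lost in at least 1 setting were those of Mcm4, Mcm10, Gmnn, Rrm2, Tk1, Ccne2, Aurkb, Tpx2 and Cdc20, and Cdc20 lost its call with no filter alone (adjusted p = 0.0555).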

How the data were processed

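RNA from 6 cultures of 393P cells, 3 with a Zeb1 vector and 3 with a control vector, was measured on Affymetrix arrays. The authors deposited log2 signals for 45101 probe sets per array; per the submitters' processing notes the method was MAS5 (version: not given in the sources used here). On the linear scale 100% of values were multiples of 0.1 (tolerance 0.01 multiples). The number of arrays limits precision, and p-values set the difference between groups against the spread among arrays of the same group. The labels do not say whether the cultures of a group came from separate clones or transfections. Whether the called changes recur in other clones or transfections was not tested.

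Signals below the pooled 25th percentile (log2 4.45, linear 21.8), and 2 missing values, were set to it. A probe set was tested if 3 or more of the 6 arrays had it at or above their own median signal and it had 1 symbol in the platform annotation (34945 probe sets; 932 with several symbols, 9160 with none and 64 controls were left out; 34741 matched RefSeq by Entrez identifier and 0 symbols changed). This left 20594 probe sets and 11893 genes, each gene read by its brightest probe set. Groups were compared with limma 3.58.1 in R 4.3.3 (lmFit, eBayes with trend), adjusted by Benjamini-Hochberg over all genes, or over all probe sets for single probe sets; the script was tested on simulated data. Errors of changes are moderated standard errors.

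The members and lists were chosen with earlier results of these data known, so lists are described by counts and medians, with no test. Full values are given for the largest called rise, the largest called fall and the smallest change in each of 8 role groups, and from each pathway list the 2 largest called rises and falls are named; other members were added after their values were seen. Alternatives were other floors, filters, normalization, variance model, probe set rules, a replicate block and leaving out each array; leaving out s_at and x_at probe sets was added after seeing the data. The 9 pathway symbols that no probe set named alone were not analysed here.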

Additional observations from a re-analysis of the deposited data

How the results depend on the processing

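The counts of falls among S-phase and mitotic members stayed within 1.5 times of 12 and 11 under every setting run. Rises over both phases were 5 in the main fit, 7 with the mean of all tested probe sets and 6 with quantile normalization. Without the intensity trend they were 3. The 2 mitotic rises were 1 without the intensity trend and 1 without s_at and x_at probe sets, where Aurkb has no probe set left, and 1 to 3 when an array was left out. With the mean of all tested probe sets the median log2 change was -0.16 for S-phase and -0.22 for mitotic members, and the change in the difference between the 2 class means was -0.038, against 0.00124 with the brightest probe sets. Tpx2 then had a change of 0.025; this setting brings in its 3 dimmer probe sets. When an array was left out, the S-phase median ranged from -0.23 to -0.18 and the mitotic median from -0.31 to -0.22; S-phase rises were 2 or 3. With label numbers as a replicate block, 25 members fell and 4 rose. The numbers are not shown to pair arrays: deviations of same-numbered arrays correlated at 0.04, -0.03 and -0.07 across genes, and 1 of 3 Zeb1 vector arrays correlated best with its own number. With no filter 20 fell and 4 rose among 18193 genes tested, and the cause was not tested. Detection calls were not used here.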
